A study of Mus musculus with 12 samples.

Results

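*Csf1* and *Csf3* encode the macrophage and granulocyte colony-stimulating factors, and they were taken by gene symbol as 2 of the 124 genes that the study lists as NF-κB-dependent. They were followed in peritoneal macrophages elicited with thioglycollate, an irritant broth that brings monocyte-derived macrophages into the cavity, and recovered by lavage 4 days after injection. The N4bp1-/- mice, which carry a 4-base CRISPR deletion in exon 2 of *N4bp1*, and the N4bp1+/+ mice were C57BL/6J males and females aged 8 to 12 weeks. Macrophages of each genotype were left unstimulated, were treated with R848 at 20 ng/ml for 2 h or were treated with LPS at 10 ng/ml for 2 h. R848 is a small-molecule agonist of TLR7, and LPS is the bacterial glycolipid sensed by TLR4. Each of the 6 groups held 2 mice, which gave 12 libraries. The study asked whether genes that depend on NF-κB are expressed differently when N4BP1, an inhibitor of NF-κB signaling, is absent.

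Colony-stimulating factors are secreted proteins that direct the growth of myeloid cells. CSF1 acts through the receptor CSF1R and sustains the survival, proliferation and differentiation of monocytes and macrophages. CSF3 acts through CSF3R and drives the production and release of neutrophils. Macrophages and stromal cells make both, and NF-κB is among the factors that raise the transcription of either gene in cells that meet microbial products.

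The values are the authors' mean FPKM (fragments per transcript length and per sequenced fragments mapped, a measure of abundance that allows for gene length and depth), 1 for each genotype and treatment over both mice. They hold no spread between mice, so no difference below could be set against replicate error, and every fold is a ratio of 2 means. The depth of each library is unknown. A gene was counted as 2-fold higher or lower only where the mean of the 2 groups compared was at least 1 FPKM. The scaling between treatments is not given by the sources used, so a level compared from one treatment to another is a description. The unstimulated libraries of both genotypes carry another label prefix than the stimulated ones, and a batch cannot be told apart from the stimulus.

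Of 6 macrophage markers only *Spi1*, the gene of the myeloid transcription factor PU.1, was among the 124 genes. It had 154 FPKM in N4bp1-/- and 167 FPKM in N4bp1+/+ unstimulated macrophages. After R848 it had 335 and 388 FPKM in N4bp1-/- and N4bp1+/+ cells, and after LPS 276 and 304 FPKM. *Spi1* therefore differed by less than 2-fold between genotypes in every treatment. Of 13 CSF ligand and receptor genes looked for, *Csf1* and *Csf3* were the only ones listed. The receptor genes *Csf1r* and *Csf3r* and the gene *N4bp1* itself were not analysed here.

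*Csf1* (ENSMUSG00000014599) lies on the minus strand at chr3:107741048-107760469 of mm10, the same assembly as GRCm38. GENCODE M21 gives it 7 transcripts, of which 6 are protein coding. The principal transcript has 9 exons over 4176 bases, with a coding sequence of 1656 bases. No other annotated gene overlaps the locus.

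The start region of *Csf1* is shown because the study's gene list is built on NF-κB, whose binding motif has a match in it. The sequence is the RefSeq promoter of GRCm38.p6, 300 bases at chr3:107760420-107760719 read 5′ to 3′ on the minus strand, 250 before the transcription start and 50 from it. Capitals mark the match to the 10-base NF-κB consensus, at 154 to 145 bases before the start, which reads GGGACTTTCC on the opposite strand.
Csf1: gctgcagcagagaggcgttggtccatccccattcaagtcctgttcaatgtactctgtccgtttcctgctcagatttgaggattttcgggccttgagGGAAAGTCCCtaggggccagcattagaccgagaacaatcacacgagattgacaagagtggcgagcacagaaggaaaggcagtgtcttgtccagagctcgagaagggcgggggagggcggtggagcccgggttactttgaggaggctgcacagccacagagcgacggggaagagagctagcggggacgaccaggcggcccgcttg
The CK-1 core GAGATTC, a cytokine promoter element, and the TATA box TATAAA had 0 matches in this window on either strand. Both strands were searched throughout. The table held 102 promoters for 81 of the listed genes, of which 26 (25.5%) had a match to the consensus, against 1480 of all 32851 mouse promoters of the same length (4.51%). The listed genes were chosen as NF-κB-dependent. A match is a description of the letters only and does not show binding.

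For comparison, 30-base windows are given around the matches of *Il6*, an inflammatory cytokine gene, and of *Serpina3g*, a serine protease inhibitor gene. *Serpina3g* had the pattern nearest to that of *Csf1* over the 6 groups with a pseudocount of 0.1 FPKM, and *Cd80* with a pseudocount of 1. Capitals mark the same consensus, and both windows lie on the plus strand.
Il6, chr5:30013060-30013089, 44 to 35 bases before the start: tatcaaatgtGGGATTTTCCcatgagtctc
Serpina3g, chr12:104236052-104236081, 85 to 76 bases before the start: agaactgttaGGGGGTTTCCgaacaggaaa
The match of *Csf1* lay farther from the start than either of these.

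*Csf1* was higher in N4bp1-/- macrophages without any stimulus, less so after R848 and not after LPS. Unstimulated N4bp1-/- macrophages had 12.5 FPKM of *Csf1*, against 2.26 FPKM in N4bp1+/+ macrophages. After R848 the values were 27.0 FPKM in N4bp1-/- and 18.1 FPKM in N4bp1+/+ macrophages. After LPS they were 53.1 FPKM in N4bp1-/- and 56.5 FPKM in N4bp1+/+ macrophages. In both genotypes the level was lowest without stimulus and highest after LPS. With no spread between mice, it cannot be said which neighbouring levels in this order differ beyond replicate error.

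**Figure D1:**
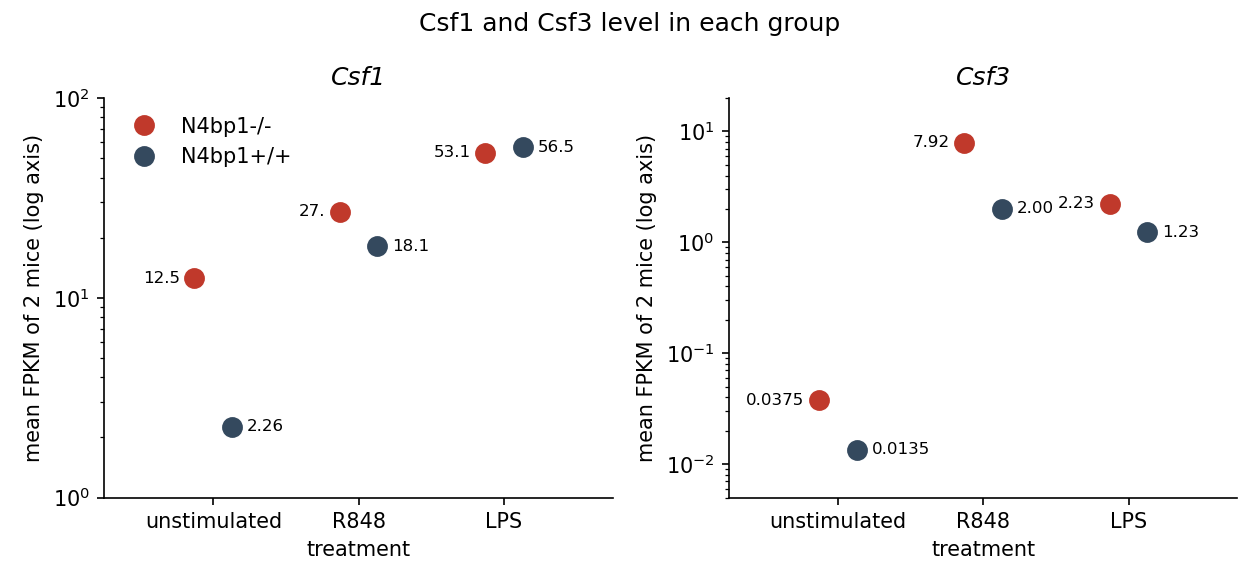
Mean FPKM of *Csf1* and *Csf3* on a log10 axis by treatment, 1 point per genotype, each the authors' mean over 2 mice with no error available. The ratio of the genotypes is largest for *Csf1* without stimulus (12.5 against 2.26 FPKM), whereas *Csf3* is near 0 there and reaches its highest level in N4bp1-/- cells after R848 (7.92 FPKM).

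The ratio of N4bp1-/- to N4bp1+/+ *Csf1* was 5.54 in unstimulated macrophages (log2 2.47). This was the 3rd highest of 88 genes at or above the minimum, 27.3% of which were at least 2-fold higher in N4bp1-/- cells. Above it was the joined complement locus *C2,Cfb,Gm20547* (log2 2.69), 2nd of the 88. The next below were the neutrophil-attracting chemokine *Cxcl5* (log2 2.41) and the adhesion molecule gene *Vcam1* (log2 2.15). The median gene had a log2 ratio of 0.33, so *Csf1* stood 2.13 above it. In bulk RNA, a change in the number of cells that express a gene and a change in RNA per cell cannot be told apart.

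After R848 the ratio was 1.49 (log2 0.57, 34th of 110 genes), below the 2-fold mark that 20% of the genes passed upward. After LPS it was 0.939 (log2 -0.09, 52nd of 113 genes), beside a median log2 ratio of -0.13. *Csf1* thus lay close to the middle of the listed genes after LPS, of which 11.5% were at least 2-fold higher in N4bp1-/- cells.

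On the FPKM scale the difference of N4bp1-/- minus N4bp1+/+ was 10.2 without stimulus, 8.84 after R848 and -3.42 after LPS. The absolute excess in N4bp1-/- cells was therefore of like size without stimulus and after R848, while the ratio was smaller after R848, where both genotypes had more *Csf1*.

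The change of the log2 ratio between treatments was large beside that of other genes. From unstimulated to R848 the log2 ratio of *Csf1* differed by -1.90, 87th of 88 genes from the top, beside a median of -0.20. From unstimulated to LPS it differed by -2.56, again 87th of 88, beside a median of -0.49. These differences share the unstimulated groups and carry no test.

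**Figure D2:**
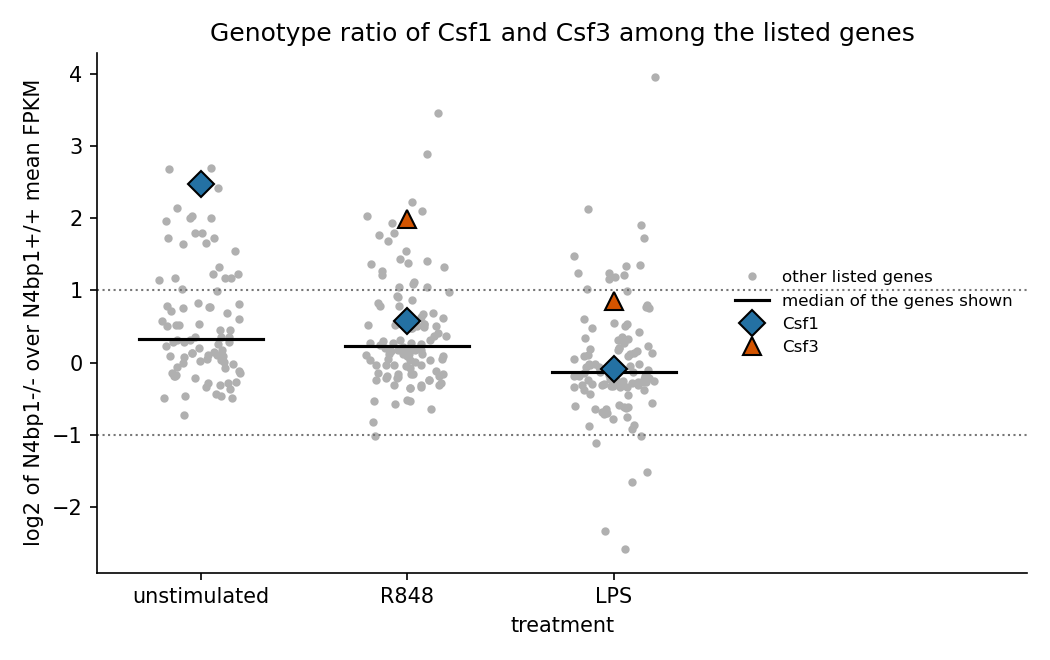
Log2 ratio of N4bp1-/- over N4bp1+/+ mean FPKM by treatment for the listed genes with a mean of at least 1 FPKM (grey points, bar at their median, dotted lines at 2-fold). *Csf1* is the 3rd highest of 88 genes without stimulus and lies near the median after LPS, and *Csf3* is the 6th highest of 110 genes after R848.

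The fold by which *Csf1* was higher with a stimulus was smaller in N4bp1-/- than in N4bp1+/+ macrophages. This follows by arithmetic from the changes of the genotype ratio given above and is not a separate result. R848 over unstimulated was 2.16-fold in N4bp1-/- cells, 101st of 109 genes, where 96.3% of genes were at least 2-fold higher. The same ratio was 8.04-fold in N4bp1+/+ cells, 60th of 103 genes, where 99% were. The increments were closer, 14.5 FPKM in N4bp1-/- against 15.9 FPKM in N4bp1+/+ cells.

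LPS over unstimulated was 4.25-fold in N4bp1-/- cells (85th of 112 genes, 87.5% at least 2-fold higher). In N4bp1+/+ cells it was 25.1-fold (49th of 109 genes, 91.7% at least 2-fold higher). The increments were 40.6 FPKM in N4bp1-/- against 54.3 FPKM in N4bp1+/+ cells. Unstimulated N4bp1-/- cells already held 68.9% of the *Csf1* level of N4bp1+/+ cells given R848, and 22.1% of that of N4bp1+/+ cells given LPS.

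Markers of other cell types were set beside these values, since stromal cells also make *Csf1*. Of 14 stromal, mesothelial and endothelial markers, 5 were listed and none was at 0. Their summed FPKM was 24.5 in N4bp1-/- and 6.69 in N4bp1+/+ unstimulated cells, 215 and 193 after R848, and 271 and 368 after LPS. In unstimulated cells *Vcam1*, the sterol hydroxylase gene *Cyp7b1* and the caveolae gene *Cav1* had log2 ratios of 2.15, 2.00 and 1.80. *Vcam1* and *Cyp7b1* met the minimum there only through their level in N4bp1-/- cells, so their count is no support. After R848 the log2 ratios were 0.28 for *Vcam1*, 1.33 for *Cyp7b1* and 0.09 for *Cav1*, and after LPS -0.05, 1.16 and -0.62. *Cyp7b1* thus stayed over 2-fold higher in N4bp1-/- cells where *Csf1* was not. The other 2 listed markers, *Sox9* and *Serpine2*, were below the minimum in every treatment. Their log2 ratios were 3.89 and 0.67 without stimulus, 2.61 and 0.46 after R848, and 2.67 and 0.39 after LPS. Most of the sum was *Cav1* and *Vcam1*, and it had the same order of the genotypes as *Csf1* in each treatment. After LPS the *Csf1* means were close (ratio 0.939). The sum was also far higher after each stimulus in both genotypes, so it cannot be read as a number of stromal cells. The part of stromal cells in the *Csf1* values was not tested.

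*Csf3* (ENSMUSG00000038067) lies on the plus strand at chr11:98701263-98703629 of mm10. It has 1 annotated transcript of 5 exons and 1413 bases, with a coding sequence of 624 bases, and no overlapping gene. The promoter of *Csf3* was not analysed here.

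*Csf3* was nearly silent without stimulus and was highest in N4bp1-/- macrophages after R848. Unstimulated N4bp1-/- macrophages had 0.0375 FPKM and N4bp1+/+ macrophages 0.0135 FPKM, the lowest value of all 124 genes in N4bp1+/+ cells. After R848, N4bp1-/- macrophages had 7.92 FPKM, against 2.00 FPKM in N4bp1+/+ macrophages. After LPS, N4bp1-/- macrophages had 2.23 FPKM, against 1.23 FPKM in N4bp1+/+ macrophages. N4bp1-/- cells had the higher mean in each treatment, and R848 gave more *Csf3* than LPS in both genotypes.

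The ratio of N4bp1-/- to N4bp1+/+ *Csf3* after R848 was 3.95 (log2 1.98), the 6th highest of 110 genes. The genes just above it were *Upp1*, which encodes uridine phosphorylase (log2 2.10), and *Ptges*, which encodes a prostaglandin E synthase (log2 2.03). Just below it were the anti-inflammatory cytokine gene *Il10* (log2 1.94) and the TNF family gene *Tnfsf15* (log2 1.79). After LPS the *Csf3* ratio was 1.81 (log2 0.86, 15th of 113 genes), below the 2-fold mark. Without stimulus both means were under the 1 FPKM minimum, and their ratio of 2.78 (log2 1.48) rests on means far below 1 FPKM.

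The FPKM difference of N4bp1-/- minus N4bp1+/+ was 0.0240 without stimulus, 5.91 after R848 and 0.997 after LPS. The log2 ratio after R848 exceeded that after LPS by 1.13, the 12th largest of 108 genes, beside a median of 0.29. For *Csf1* the same difference was 0.66 (30th of 108). Both genes had a higher genotype ratio after R848 than after LPS, as had the median gene.

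R848 over unstimulated was 211-fold for *Csf3* in N4bp1-/- cells (log2 7.72) and 148-fold in N4bp1+/+ cells (log2 7.21). With a pseudocount of 1 FPKM the log2 values were 3.10 in N4bp1-/- and 1.57 in N4bp1+/+ cells. LPS over unstimulated was 59.3-fold in N4bp1-/- and 91.0-fold in N4bp1+/+ cells. *Csf3* met the minimum only through its stimulated levels, and did not meet it for LPS in N4bp1+/+ cells. All 4 folds divide by the unstimulated means given above and are uncertain in size.

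Neutrophil markers were set beside *Csf3*, since CSF3 is the neutrophil growth factor and neutrophils can enter the irritated peritoneum. Of 10 markers, 3 were listed and none was at 0, namely the protease gene *Mmp9*, the iron-binding lipocalin gene *Lcn2* and the receptor gene *Trem1*. Their summed FPKM was 6.11 in N4bp1-/- and 3.58 in N4bp1+/+ unstimulated cells, 75.5 and 36.6 after R848, and 35.9 and 14.7 after LPS. Without stimulus the log2 ratios were 1.73 for *Mmp9* and -0.49 for *Lcn2*, and *Trem1* was below the minimum. After R848 they were 0.09 for *Mmp9*, 1.27 for *Lcn2* and 3.45 for *Trem1*, so 2 of 3 were at least 2-fold higher, beside 20% of all genes. After LPS they were 1.24, 1.19 and 3.96, so 3 of 3 were, beside 11.5% of all genes. *Trem1* met the minimum only through its level in N4bp1-/- cells, so its calls are no support. The sum was also far higher after each stimulus in both genotypes, so it cannot be read as a number of neutrophils. After LPS *Mmp9* and *Lcn2* passed 2-fold, where *Csf3* did not. The part of neutrophils in the *Csf3* values was not tested.

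The 2 factors differed in which stimulus gave more of them. LPS over R848 for *Csf1* was 1.97-fold in N4bp1-/- cells (log2 0.98, 21st of 116 genes, 17.2% at least 2-fold higher). In N4bp1+/+ cells it was 3.12-fold (log2 1.64, 23rd of 112 genes, 27.7% at least 2-fold higher). For *Csf3* the ratio was 0.281 in N4bp1-/- cells (log2 -1.83), the lowest of 116 genes, of which 8.62% were at least 2-fold lower. In N4bp1+/+ cells it was 0.613 (log2 -0.71, 105th of 112 genes, 5.36% at least 2-fold lower). *Csf3* was next to *Il23a*, a subunit gene of interleukin-23, which had a log2 ratio of -1.81 in N4bp1-/- cells, and to the growth factor gene *Pdgfb* (log2 -1.52).

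**Figure D3:**
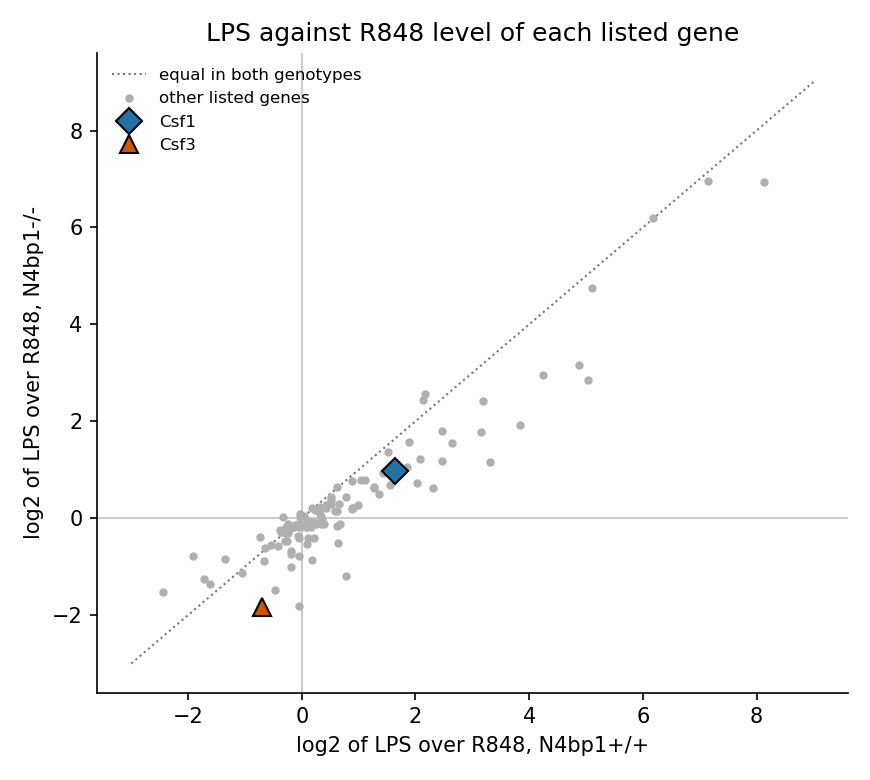
Log2 ratio of LPS over R848 mean FPKM in N4bp1-/- macrophages and in N4bp1+/+ macrophages for 110 listed genes, each a grey point. *Csf1* lies on the LPS side in both genotypes (0.98 and 1.64) and *Csf3* on the R848 side in both (-1.83 and -0.71).

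The FPKM ratio of *Csf1* to *Csf3* was 333 in N4bp1-/- and 167 in N4bp1+/+ unstimulated cells. After R848 it was 3.41 in N4bp1-/- and 9.06 in N4bp1+/+ cells, and after LPS 23.9 and 46.0. *Csf1* was thus the more abundant transcript per length in every group, and the pair came closest in level in N4bp1-/- cells after R848. Across treatments, *Csf3* in N4bp1-/- cells given LPS was at 111% of its level in N4bp1+/+ cells given R848. *Csf1* in N4bp1-/- cells given R848 was at 47.7% of its level in N4bp1+/+ cells given LPS.

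Likeness of pattern was measured over the 6 groups as the root mean square difference of log2(FPKM + 0.1), each gene first centred on its own mean. Among the 5 genes nearest to *Csf1* were *Serpina3g* (0.48), the preproenkephalin gene *Penk* (0.51) and the immune ligand genes *Cd80* (0.62) and *Cd274* (0.72). *Penk* had 0.700 FPKM in N4bp1-/- and 0.350 FPKM in N4bp1+/+ unstimulated cells, 3.02 and 1.71 FPKM after R848, and 4.68 and 4.11 FPKM after LPS. It shared with *Csf1* a level that was highest after LPS. Its genotype ratio was also largest without stimulus, but only narrowly (log2 0.998, against 0.825 after R848). Both of its unstimulated means were under the 1 FPKM minimum, so that likeness is uncertain. *Cd274*, the gene of PD-L1, shared only the order of the treatments, with 40.0 FPKM in unstimulated N4bp1-/- cells, against 37.0 FPKM in unstimulated N4bp1+/+ cells. *Serpina3g* has close paralogs whose reads the authors' counting could have split, so its values are uncertain.

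Nearest to *Csf3* were *Il10* (0.47), *Lcn2* (0.49), the lectin-like receptor gene *Olr1* (0.62), the activin subunit gene *Inhba* (0.64) and the survival gene *Bcl2a1a* (0.66). *Il10* had 0.0741 FPKM in N4bp1-/- and 0.127 FPKM in N4bp1+/+ unstimulated cells, 13.7 and 3.56 FPKM after R848, and 7.95 and 3.43 FPKM after LPS. It resembled *Csf3* in being near 0 without stimulus. Like all 5 of these genes, *Il10* was highest in N4bp1-/- cells after R848. *Bcl2a1a* is 1 of a family of near-identical copies, so its values are uncertain too. *Csf1* and *Csf3* were far apart by this measure (1.53): *Csf3* was the 99th nearest gene to *Csf1*, and *Csf1* the 78th nearest to *Csf3*. With a pseudocount of 1, 4 of the 5 genes nearest to *Csf1* were shared, all but *Penk*. Only 1 of the 5 nearest to *Csf3* was shared, *Il10*.

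**Figure D4:**
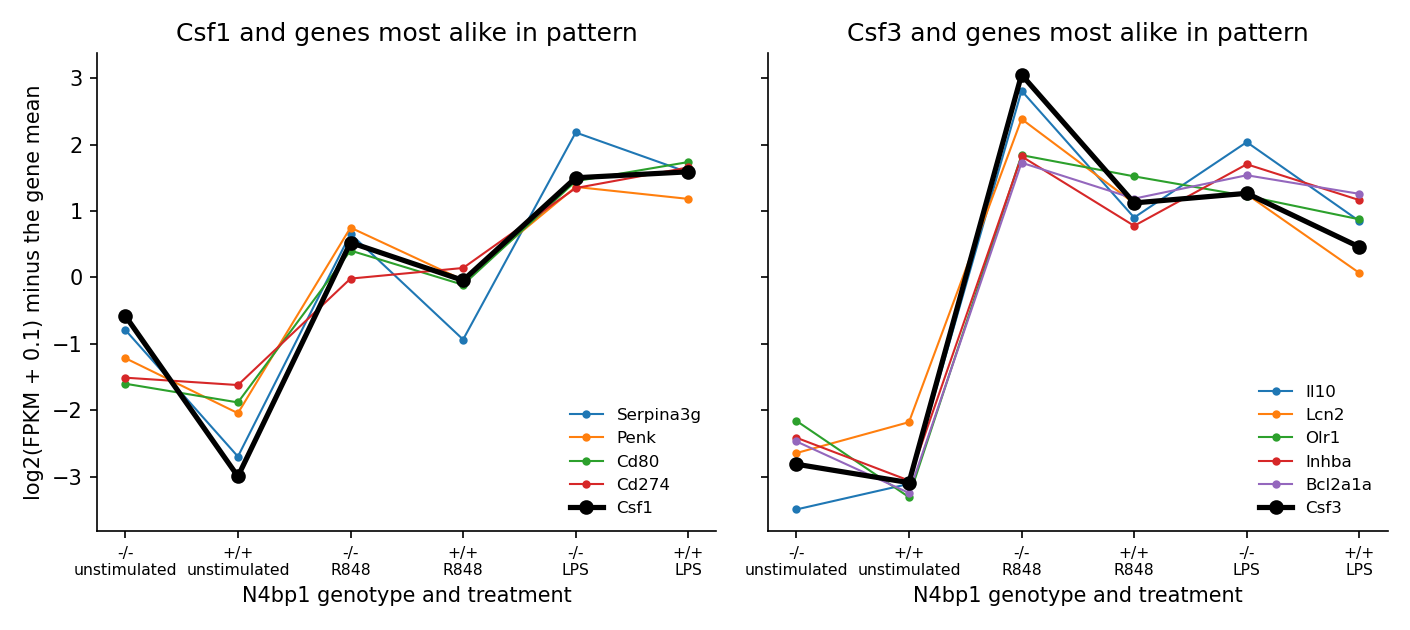
Log2(FPKM + 0.1) centred on each gene's mean over the 6 groups, for *Csf1* with 4 of the 5 listed genes nearest to it and for *Csf3* with the 5 nearest to it. *Csf1* and the 4 genes shown with it are highest after LPS, and *Csf3* and all 5 genes shown with it are highest in N4bp1-/- macrophages after R848.

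All 17 other cytokine and growth factor genes looked for were listed, of which 8 were at or above the minimum without stimulus and 16 after each stimulus. Without stimulus, only *Pdgfb* of the 8 was at least 2-fold higher in N4bp1-/- cells (log2 1.02), beside 27.3% of all genes. Their median log2 ratio was 0.23, beside 0.33 over all genes. After R848, 6 of 16 were at least 2-fold higher, beside 20% of all genes, among them *Il10* (log2 1.94), *Tnfsf15* (1.79) and *Il6* (1.38). *Il15* was 2-fold lower (-1.01), beside 1 of all 110 genes. The median log2 ratio of the 16 was 0.65, beside 0.23 over all genes. After LPS, 2 of 16 were at least 2-fold higher, *Pdgfb* (log2 1.90) and *Il10* (1.21), beside 11.5% of all genes. *Il23a* (-2.58) and the endothelin gene *Edn1* (-1.11) were at least 2-fold lower, beside 6 of all 113 genes. The median of the 16 was then -0.29, beside -0.13 over all genes.

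*Tnf* and *Il6* are the inflammatory cytokine genes that the study names for this experiment. *Tnf* had 10.8 FPKM in N4bp1-/- and 8.65 FPKM in N4bp1+/+ unstimulated cells, 2838 and 2141 FPKM after R848, and 1955 and 2281 FPKM after LPS. *Il6* had 0.331 FPKM in N4bp1-/- and 0.126 FPKM in N4bp1+/+ unstimulated cells, 84.3 and 32.4 FPKM after R848, and 129 and 160.0 FPKM after LPS. In N4bp1-/- cells both were higher after R848 and lower after LPS than in N4bp1+/+ cells. *Csf1* was likewise higher in N4bp1-/- cells after R848, and after LPS its means were close (ratio 0.939). *Csf3* had the higher mean in N4bp1-/- cells after LPS also, but its ratio of 1.81 was below the 2-fold mark and its levels were low (2.23 against 1.23 FPKM).

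Of 13 chemokine genes, 10 were listed. Without stimulus 3 of 7 at or above the minimum were at least 2-fold higher in N4bp1-/- cells, namely *Cxcl5* (log2 2.41), *Ccl5* (1.23) and the monocyte chemokine gene *Ccl2* (1.80), beside 27.3% of all genes. After R848 only *Cxcl5* of 9 was (log2 1.41), beside 20% of all genes. After LPS *Cxcl5* of 10 was (1.35), beside 11.5%, while *Ccl17* and *Ccl22* were at least 2-fold lower, beside 6 of all 113 genes. *Ccl17* met the minimum only through its level in N4bp1+/+ cells (2.13 FPKM, against 0.426 FPKM in N4bp1-/- cells), so its call is no support.

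Of 16 genes that act in myeloid growth, the cell cycle or survival, 10 were listed and all 10 were at or above the minimum. Only *Ccnd2*, the cyclin D2 gene, was at least 2-fold higher in unstimulated N4bp1-/- cells (log2 1.22), and 0 passed 2-fold in either direction after R848 or LPS. *Ccnd2* met the minimum there only through its level in N4bp1-/- cells (1.41 against 0.605 FPKM), so its call is no support. Over all genes the share at least 2-fold higher was 27.3% without stimulus, 20% after R848 and 11.5% after LPS, so with 10 genes these counts say little. Of 12 NF-κB subunit and inhibitor genes, 10 were listed and 0 passed 2-fold in any treatment. The inhibitor gene *Nfkbie* was just under that mark in unstimulated cells (log2 0.9996, 7.31 FPKM in N4bp1-/- against 3.65 FPKM in N4bp1+/+ cells). The median log2 ratio of the 10 was 0.37 in unstimulated cells, 0.08 with R848 and -0.15 with LPS. Over all genes it was 0.33, 0.23 and -0.13.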

How the data were processed

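Poly(A) RNA of 12 macrophage libraries was sequenced from stranded libraries, with groups taken from the genotype and treatment in the labels. The authors deposited FPKM as 1 mean per genotype and treatment over 2 mice, for 124 genes. Reads were processed with TopHat2 2.0.10, Cufflinks 2.1.1 and CASAVA 1.8.2 on mm10, per the submitters' processing notes. Annotation and read filters were not stated in the sources used. The deposited tables also hold the authors' log2 fold change, test statistic and p- and q-values, which were not used. A joint table of all treatments held the same FPKM values.

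With no counts and no value per library, depth is unknown and no interval, SD or test between mice could be computed. Folds are ratios of mean FPKM with no pseudocount. A gene was counted as past 2-fold only with a mean of both groups of at least 1 FPKM, and the share of all such genes past 2-fold higher is given for each comparison. FPKM is per transcript length, so a joined locus or a paralog can shift it. Python 3.11.15, numpy 2.4.6, pandas 2.3.3 and matplotlib 3.10.9 were used, and the counting was tested on simulated data.

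The 2 genes and all lists were chosen with earlier results of these data known. Named genes are *Csf1*, *Csf3*, the 5 nearest in pattern to each (1 of these, near *Csf1*, is not reported here but is kept in counts, ranks and medians), *Tnf*, *Il6* and up to 4 per list. Neighbours in a ranking, *Spi1*, *Sox9*, *Serpine2* and the genes with printed windows were named after their values were seen. Alternatives were pseudocounts of 0.1 and 1, centring on the median of the listed genes, no minimum, a 1.5-fold mark and the joint table.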

Additional observations from a re-analysis of the deposited data

How the results depend on the processing

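No paired analysis was possible because the deposited values are group means, and leaving out each mouse was not run for the same reason. A value is given here where it moved by over 1.5-fold (log2 0.58) or a count by over 1.5 times. Centring on the median of the listed genes subtracts the difference between the group medians over all 124 genes. Between stimulated and unstimulated groups that was 3.26 to 4.03 (log2), so any gene with a smaller rise comes out below 0 by construction. For *Csf1* this gave -2.15 for R848 over unstimulated in N4bp1-/- cells, -0.62 in N4bp1+/+ cells and -1.44 for LPS over unstimulated in N4bp1-/- cells, while its FPKM was higher with the stimulus each time and with either pseudocount. Its N4bp1-/- over N4bp1+/+ log2 ratio without stimulus was 1.76 and its LPS over unstimulated ratio in N4bp1+/+ cells was 0.62 under centring. Between genotypes without stimulus, centring subtracts 0.71, which is not the median log2 ratio of 0.33 over the 88 genes at or above the minimum. *Csf3* depended on the pseudocount wherever an unstimulated mean entered. Its genotype log2 ratio without stimulus was 0.28 with a pseudocount of 0.1, 0.034 with 1 and 0.76 centred. Its R848 over unstimulated log2 ratio was 5.87, 3.10 and 4.46 in N4bp1-/- cells and 4.21, 1.57 and 3.59 in N4bp1+/+ cells under the same settings. Its LPS over unstimulated log2 ratio was 4.08, 1.64 and 2.36 in N4bp1-/- cells and 3.55, 1.14 and 2.48 in N4bp1+/+ cells. Of 36 values each, 31 for *Csf1* and 21 for *Csf3* stayed within these bounds.

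The count of genes past 2-fold between genotypes without stimulus was 44 with no minimum, against 24. A 1.5-fold mark gave 36 against 23 after R848, 39 against 19 after LPS, and 52 against 30 for LPS against R848 in N4bp1-/- cells. Centring gave 67 against 105 for R848 over unstimulated in N4bp1-/- cells and 66 against 102 in N4bp1+/+ cells. The split went from 105 higher and 0 lower to 31 and 36 in N4bp1-/- cells, and from 102 and 0 to 30 and 36 in N4bp1+/+ cells. For LPS over unstimulated it went from 98 and 0 to 36 and 38 in N4bp1-/- cells, and from 100 and 0 to 38 and 37 in N4bp1+/+ cells. The genotype calls without stimulus were 24 higher and 0 lower, and 13 and 9 after centring. They were 22 and 1 after R848, and 15 and 2 centred, and 13 and 6 after LPS, and 9 and 9 centred. The other 39 of 45 counts stayed within 1.5 times. For LPS over R848 they were 20 and 10 in N4bp1-/- cells, and 16 and 15 centred, and 31 and 6 in N4bp1+/+ cells, and 26 and 10 centred. At a 1.5-fold mark *Csf3* passed after LPS between genotypes, *Csf1* was past it (higher) for LPS over R848 in N4bp1-/- cells, and *Csf3* was past it (lower) in N4bp1+/+ cells, where it also passed 2-fold when centred. With no minimum *Csf3* passed 2-fold between genotypes without stimulus and for LPS over unstimulated in N4bp1+/+ cells. The cause of these shifts was not tested beyond what each setting does by construction.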
